A study of Homo sapiens with 9 samples.

Results

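The regulators of the epithelial-mesenchymal transition (EMT) described here are 10 genes taken by name, and 8 of them were among the 19205 genes tested on the arrays of the series. They are 6 mesenchymal regulators, SNAI1, SNAI2, ZEB1, ZEB2, TWIST1 and TWIST2, and 4 epithelial regulators, GRHL2, OVOL2, ESRP1 and ESRP2. The array carried 20 probes for them among its 50598, and 13 of those probes were bright enough to be tested, leaving out GRHL2 and ESRP1. The mRNA was measured in HEK293 cells, a line derived from human embryonic kidney, which stably expressed HA-tagged MEK1, the kinase that phosphorylates ERK. MEK1 was wild type (WT cells), carried the RASopathy mutation F53S (F53S cells) or carried the cancer mutation K57N (K57N cells). The cells were in steady state, 1 line of each kind, made by stable transfection, was described, and each was measured on 3 one-color Agilent arrays. Differences between the lines other than the mutation therefore cannot be told apart from its effect. No source used here described the 3 RNA samples of a line further than as independent experiments, so p-values measure the spread between these arrays.

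Epithelial cells are held in sheets by E-cadherin junctions and tight junctions, and in EMT they lose these contacts and take up a motile, matrix-producing state. SNAI1, SNAI2, ZEB1 and ZEB2 are zinc-finger repressors that bind E-box sequences in the promoters of epithelial genes, and TWIST1 and TWIST2 are basic helix-loop-helix factors that bind E-boxes. OVOL2 and GRHL2 are transcription factors that maintain the epithelial state and oppose ZEB1, and ESRP1 and ESRP2 are splicing factors that make the epithelial forms of transcripts such as FGFR2 and CD44. ERK signaling is known to induce SNAI1. HEK293 cells are not a typical epithelium: they grow as adherent cells but make abundant vimentin and N-cadherin.

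Because the zinc-finger repressors recognize the E-box motif CAGGTG, promoter windows from RefSeq (GRCh38.p14, 300 bases, from 250 before to 50 after a gene start) were searched for this motif on both strands. Of all 35116 windows, 20.6% held at least 1 E-box and 0.635% held at least 3. Windows were at hand for 3 of the 10 regulators: 2 of 7 ZEB1 windows held the motif, with 3 copies in one, and the single windows of ZEB2 and TWIST2 held none. Among the genes of cell junctions and epithelial structure, 8 of the 11 with a window held it, beside 24.1% of all 27305 genes with a window, and among mesenchymal structure genes 2 of 11 did. Both lists were chosen by name, 11 of the 22 genes of each had a window, and CDH1 and EPCAM had none. These shares are therefore no measure of enrichment. The ZEB1 window (chr10:31318966-31319265, plus strand) is shown as the regulator with the most copies. Those of CLDN7 (a tight-junction claudin, chr17:7262429-7262728, minus strand) and CRB3 (a cell polarity protein, chr19:6464021-6464320, plus strand) are shown as the epithelial genes with the most, 5 each. Capitals mark the E-boxes, 5′ to 3′ on the strand of the gene. A match is a description of the letters and not evidence of binding.
ZEB1: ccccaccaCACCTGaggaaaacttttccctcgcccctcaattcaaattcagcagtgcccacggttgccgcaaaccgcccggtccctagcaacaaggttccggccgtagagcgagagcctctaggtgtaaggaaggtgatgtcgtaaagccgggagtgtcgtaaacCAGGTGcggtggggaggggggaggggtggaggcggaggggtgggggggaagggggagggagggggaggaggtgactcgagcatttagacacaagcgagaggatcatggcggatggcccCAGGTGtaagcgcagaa
CLDN7: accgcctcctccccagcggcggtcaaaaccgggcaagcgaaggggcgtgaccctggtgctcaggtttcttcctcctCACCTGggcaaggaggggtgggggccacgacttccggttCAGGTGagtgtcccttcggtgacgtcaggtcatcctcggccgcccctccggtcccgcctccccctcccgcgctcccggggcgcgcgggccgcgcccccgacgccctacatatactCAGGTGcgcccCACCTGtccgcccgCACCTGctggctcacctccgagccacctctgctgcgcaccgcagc
CRB3: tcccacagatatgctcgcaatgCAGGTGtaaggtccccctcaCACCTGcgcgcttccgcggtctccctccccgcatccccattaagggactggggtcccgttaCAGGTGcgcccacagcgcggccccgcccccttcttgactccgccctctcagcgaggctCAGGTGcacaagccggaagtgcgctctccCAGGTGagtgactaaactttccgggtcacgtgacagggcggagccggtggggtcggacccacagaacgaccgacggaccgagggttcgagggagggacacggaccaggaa

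Values are log2 of the scanner's processed signal relative to the array's own 75th percentile, so a value of 0 is a spot as bright as that percentile. They compare a probe across arrays and not one probe with another. A gene was called when its limma adjusted p (Benjamini-Hochberg over all probes tested) was below 0.05 and its change exceeded 2-fold. Where a gene had several probes, the brightest tested probe stood for it. Replicate 1 of each line was on slide 1, where the 75th percentile was a signal of 245 to 376, and replicates 2 and 3 were on slide 2, where it was 695 to 821. Probes well above background numbered 23711 to 26110 on the arrays of slide 1 and 27114 to 29319 on those of slide 2. Each line was on both slides, so values are given within each slide and adjusted p also with the slide as a term in the fit. Of 8 HEK293 markers, 7 were well above background on all 9 arrays and NEFM on 6. Of 5 fibroblast markers, PDGFRA was well above background on 8 arrays, LUM on 6, COL3A1 on 4 and PDGFRB and DCN on 0. Of 4 blood markers, PTPRC and CD14 were above background on 9, CD3E on 7 and HBB on 0, and of 3 endothelial markers CDH5 was on 9, PECAM1 on 2 and KDR on 1. None of the 5 tested of these 12 was called between K57N and WT cells by limma. CD14 was the 1 of them with an unadjusted limma p below 0.05, at a log2 difference of 0.88 (limma adjusted p = 0.168). Its limma adjusted p was 0.0490 with the slide in the fit and 0.0657 with the replicate number as a block. CD3E differed by -1.15 (limma adjusted p = 0.740). The probe for MAP2K1, the MEK1 gene, was higher in K57N than in WT cells by a log2 value of 0.48 ± 0.13 (SE, n = 3 per line, limma adjusted p = 0.135), and whether it lies in the part of the transcript carried by the transgene was not established. The ERK target DUSP6 was 80.1-fold higher in K57N cells (limma adjusted p = 2.78e-04), and 12 of 13 ERK output genes were called higher there, beside 2.25% of all genes tested called in either direction. In F53S cells 0 of the 13 were called against WT cells by limma, beside 0% of all genes tested. All 13 had log2 differences above 0, with a median of 1.22, while 54.3% of all genes tested were above 0. At an unadjusted limma p below 0.05, 11 of the 13 passed. With more than 2-fold as well, 8 of the 13 did, beside 46 of all 19205 genes tested. DUSP6 was 7.45 times the WT level in F53S cells (limma adjusted p = 0.352).

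Among the 8 regulators tested, SNAI1 was the 1 called between K57N and WT cells, where 2.25% of all genes tested were called. SNAI1, measured by a single probe at chr20:48605170-48605229 on hg19, had log2 signals of -0.06, -0.34 and -0.47 on WT arrays 1 to 3. On the F53S arrays it was 0.21, -0.23 and -0.22, and on the K57N arrays 1.57, 1.09 and 1.17. Each K57N array was above every WT and F53S array, and WT and F53S arrays overlapped. Relative to WT cells SNAI1 rose 2.96-fold in K57N cells, a log2 difference of 1.57 ± 0.21 (SE, n = 3 per line, limma adjusted p = 0.00767). The log2 difference was 1.64 on slide 1 and 1.53 on slide 2, and the limma adjusted p with the slide in the fit was 3.86e-05. Leaving out each array in turn kept the limma adjusted p for K57N against WT between 0.00571 and 0.0465. When all probes were tested with no filter on dim ones, it was 0.0555. In mRNA from whole cultures, a higher level in each cell and a larger share of cells with a high level cannot be told apart.

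Against F53S cells, SNAI1 was 2.57-fold higher in K57N cells, a log2 difference of 1.36 ± 0.21 (SE, n = 3 per line, limma adjusted p = 0.0249). It was again the 1 regulator called, beside 1.21% of all genes tested. The log2 difference was 1.37 on slide 1 and 1.36 on slide 2, and with the slide in the fit the limma adjusted p was 1.15e-04. This call was kept without WT replicate 1 or F53S replicate 1, and without any one of the other 7 arrays the limma adjusted p was between 0.0538 and 0.123. It was 0.160 with no filter on dim probes and 0.0770 when the fit held the arrays of those lines only. Between F53S and WT cells the log2 difference was 0.21, with a 95% interval of -0.27 to 0.69.

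**Figure D1:**
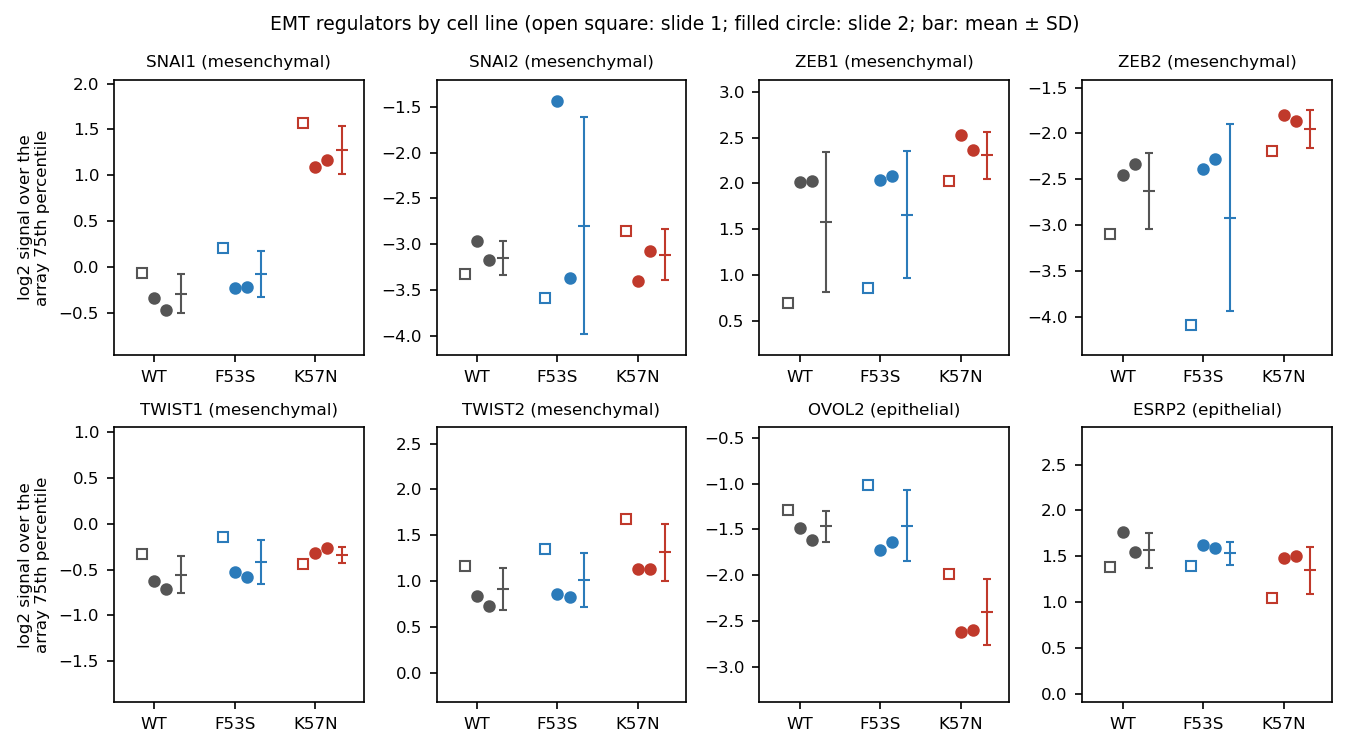
Log2 signal over the array's 75th percentile (y axis, 3 log2 units high in each panel) for the 8 regulators tested, by cell line (x axis). Each point is 1 array, with open squares for slide 1 and filled circles for slide 2, and the bar is the mean ± SD of 3 arrays; K57N arrays lie above all others for SNAI1 and below all others for OVOL2, while 1 F53S array of SNAI2 stands apart at -1.44.

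OVOL2, the zinc-finger factor that holds cells in the epithelial state, had the opposite pattern. Its probe (chr20:18005019-18005078, hg19, minus strand) read -1.28, -1.49 and -1.62 on the WT arrays. It read -1.02, -1.73 and -1.64 on the F53S arrays and -1.99, -2.62 and -2.60 on the K57N arrays. Each K57N array was below every WT and F53S array, and the probe was well above background on all 9. The level in K57N cells was 1.91-fold below that in WT cells, a log2 difference of -0.94 ± 0.26 (SE, n = 3 per line), and did not pass the test (limma adjusted p = 0.119). With the slide in the fit the SE of the same difference was 0.11 and the limma adjusted p was 0.00155; with the replicate number as a block the limma adjusted p was 0.00497. The difference was under 2-fold in all these fits, so OVOL2 was not called. It was -0.71 on slide 1 and -1.05 on slide 2, and the slide 2 arrays alone gave a limma adjusted p of 0.00258. As arrays were left out, the difference ran from -1.14 to -0.83 and passed in none of these fits (limma adjusted p 0.0580 to 0.366). With normexp background correction it was -0.70 (limma adjusted p = 0.401), and with no filter on dim probes the limma adjusted p was 0.439. Against F53S cells the log2 difference was -0.94 ± 0.26 (SE, n = 3 per line, limma adjusted p = 0.180, and 0.00242 with the slide in the fit). F53S and WT cells differed by 0.00, with a 95% interval of -0.58 to 0.59.

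ZEB1, the repressor that OVOL2 opposes, differed between the slides. The brighter of its probes (chr10:31818063-31818122, hg19) read 0.69, 2.01 and 2.02 on the WT arrays, 0.86, 2.04 and 2.08 on the F53S arrays and 2.02, 2.53 and 2.36 on the K57N arrays. WT and F53S values were lower on slide 1 than on slide 2 by more than 1 log2 unit, and the lowest K57N array lay just above the highest WT array and below the highest F53S array. The K57N minus WT difference was 1.33 on slide 1 and 0.43 on slide 2. Over all arrays it was 0.73 ± 0.44 (SE, n = 3 per line, limma adjusted p = 0.605). With the slide in the fit the limma adjusted p was 0.0326, and with the replicate number as a block it was 0.0560. The slide 2 arrays alone gave a limma adjusted p of 0.0226. The second ZEB1 probe (chr10:31816261-31816320) gave a K57N minus WT difference of 1.28 on slide 1 and 0.39 on slide 2. Its limma adjusted p was 0.773, 0.0334 with the slide in the fit and 0.0576 with the replicate number as a block. Without WT array 1 the difference of the brighter probe was 0.29.

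ZEB2, the paralog of ZEB1, was dim, and its 3 probes are separate regions of the gene. The brightest (chr2:145146261-145146320, hg19) read -3.10, -2.45 and -2.33 on the WT arrays, -4.09, -2.39 and -2.27 on the F53S arrays and -2.19, -1.80 and -1.87 on the K57N arrays. The K57N arrays were above all others, and F53S array 1 was not well above background. The log2 difference between K57N and WT cells was 0.68 ± 0.46 (SE, n = 3 per line, limma adjusted p = 0.680, and 0.117 with the slide in the fit). On the slide 2 arrays alone it was 0.56 with a limma adjusted p of 0.0127. A second probe (chr2:145182363-145182422), above background on all 9 arrays, read -3.07 to -3.24 in WT cells, -3.03 to -3.25 in F53S cells and -2.63 to -2.76 in K57N cells. Its K57N minus WT difference was 0.46 ± 0.15 (SE, n = 3 per line, limma adjusted p = 0.182, and 0.0184 with the slide in the fit). The third probe (chr2:145268973-145269032), for a noncoding transcript of the locus, differed by -0.15 on slide 1 and 0.47 on slide 2.

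TWIST2 read 1.17, 0.84 and 0.73 on the WT arrays, 1.35, 0.86 and 0.82 on the F53S arrays and 1.67, 1.13 and 1.13 on the K57N arrays (chr2:239832044-239832103, hg19). The lines overlapped over all arrays, while within each slide the K57N values were the highest. The K57N minus WT difference was 0.50 on slide 1 and 0.35 on slide 2, and 0.40 ± 0.23 over all arrays (SE, n = 3 per line, limma adjusted p = 0.575). With the slide in the fit the limma adjusted p was 0.0157, with the replicate number as a block 0.0342 and on the slide 2 arrays alone 0.0258. A second tested probe, far dimmer, gave 0.40 ± 0.55 (SE, n = 3 per line, limma adjusted p = 0.924).

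TWIST1 and SNAI2 gave no difference that passed a test over all arrays. The brighter TWIST1 probe (chr7:19156462-19156521, hg19, minus strand) lay between -0.71 and -0.33 in WT cells, between -0.58 and -0.14 in F53S cells and between -0.44 and -0.27 in K57N cells. The lines overlapped, and the K57N minus WT difference was 0.21 with a 95% interval of -0.21 to 0.63. It was -0.11 on slide 1 and 0.37 on slide 2, and the slide 2 arrays alone gave a limma adjusted p of 0.0212. The other tested TWIST1 probe (chr7:19155645-19155704) was near background, above it on 6 of 9 arrays. Its K57N minus WT difference was 0.22 ± 0.33 (SE, n = 3 per line, limma adjusted p = 0.940). Its F53S minus WT difference was -0.51, opposite in sign to the 0.14 of the brighter probe. SNAI2, known as SLUG, read -3.33, -2.96 and -3.17 on the WT arrays, -3.59, -1.44 and -3.36 on the F53S arrays and -2.86, -3.41 and -3.07 on the K57N arrays. F53S array 2 stood apart from the other 8. The K57N minus WT difference of SNAI2 was 0.04 with a 95% interval of -1.12 to 1.20, so a change of 2-fold in either direction lay within its error.

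Among the splicing factors, ESRP2 was well above background on all 9 arrays. It was measured by 10 repeated spots of 1 probe (chr16:68263054-68263113, hg19, minus strand). It read 1.39, 1.76 and 1.54 on the WT arrays, 1.39, 1.62 and 1.59 on the F53S arrays and 1.05, 1.49 and 1.50 on the K57N arrays. The lines overlapped. The K57N minus WT difference was -0.22, with a 95% interval of -0.65 to 0.21 and a limma adjusted p of 0.792 (0.158 with the slide in the fit). ESRP1 was above background on 0 of 9 arrays, with values between -6.97 and -5.13, and has only an upper bound in all 3 lines. The probes of GRHL2, the grainyhead factor that maintains epithelial junctions, were above background on 1 and 2 of the 9 arrays. The brightest of these was -2.46 on F53S array 2, the array on which SNAI2 also stood apart. The part of that array in either value was not tested.

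Taken by class, the log2 differences between K57N and WT cells were above 0 for 6 of 6 mesenchymal regulators, with a median of 0.54 and a range of 0.04 to 1.57. They were below 0 for the 2 epithelial regulators tested, with a median of -0.58. With no filter on dim probes, so that GRHL2 and ESRP1 counted too, the epithelial median was -0.35. The median over all genes tested was -0.06, and 43.0% of them were above 0. There was no overlap between the K57N and the WT values for SNAI1, ZEB1, ZEB2 and OVOL2, 4 of the 8 regulators tested, beside 22.9% of all genes tested. This holds for the brightest probe of each gene. On the second ZEB1 probe K57N array 1 read -1.10, below WT arrays 2 and 3 at -0.70 and -0.66. The third ZEB2 probe also overlapped between these lines, while the second ZEB2 probe did not. Comparing arrays of the same replicate number, 5, 5 and 6 of the 6 mesenchymal regulators were higher in K57N cells, and both epithelial regulators were lower each time. With the slide in the fit and no limit on the fold, SNAI1, ZEB1, TWIST2 and OVOL2 passed an adjusted p of 0.05 in limma, 4 of 8 beside 19.4% of all genes tested. Against F53S cells SNAI1 and OVOL2 passed in that fit, 2 of 8 beside 13.4%. This setting was chosen after seeing the data. With the replicate number as a block, ZEB1 did not pass between K57N and WT cells (limma adjusted p = 0.0560). The class medians of K57N against WT are descriptions of a few genes. For 7 of the 8 regulators the estimated difference was under 2-fold, and the 95% intervals of ZEB1, ZEB2, SNAI2 and OVOL2 reached past 2-fold.

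Between F53S and WT cells no regulator was called, and the share over all genes tested was 0% in limma. At an unadjusted limma p below 0.05 with more than 2-fold, 46 genes and none of the regulators passed, and 25 genes and none of the regulators did by the methods' t-test without adjustment, also with more than 2-fold. The log2 differences of the mesenchymal regulators ranged from -0.29 for ZEB2 to 0.36 for SNAI2, with a median of 0.12, and were 0.00 for OVOL2 and -0.03 for ESRP2. As arrays were left out, the mesenchymal median ran from 0.034 (without F53S array 2) to 0.24 (without WT array 1). Over all genes tested the median was 0.01. K57N against WT and K57N against F53S share the K57N arrays, and the class medians of the latter were 0.47 and -0.56. The mesenchymal median of K57N against F53S was 0.95 on slide 1, 0.34 on slide 2 and 0.31 without F53S array 1.

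**Figure D2:**
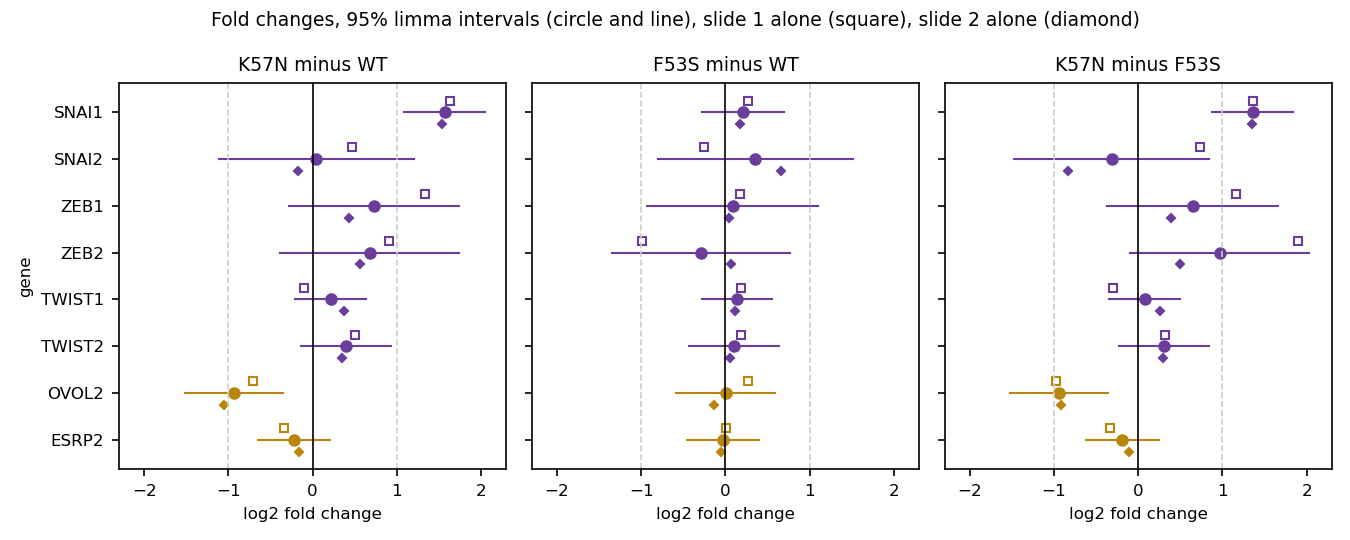
Log2 fold changes (x axis) of the 8 regulators (y axis) in the 3 comparisons of cell lines. Circles and lines are the difference over all arrays with its 95% limma interval, squares are slide 1 alone (1 array per line) and diamonds slide 2 alone (2 per line), purple marks mesenchymal and gold epithelial regulators; SNAI1 at 1.57 and OVOL2 at -0.94 in K57N minus WT have intervals that leave out 0.

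The epithelial and mesenchymal structure genes called between K57N and WT cells were all lower in K57N cells, while the others went both ways. Whether the regulators act on these genes in these cells was not tested. Of 22 epithelial structure genes, 17 were tested, and MARVELD3 was the 1 called between K57N and WT cells, beside 2.25% of all genes tested. MARVELD3, a tight-junction protein, fell by 1.25 on the log2 scale in K57N cells (SE 0.23, n = 3 per line, limma adjusted p = 0.0300). The median over the 17 was -0.06, and that over all genes tested was also -0.06. CDH1, which encodes E-cadherin, was above background on 2 of 9 arrays, and EPCAM, an epithelial adhesion protein, on 1, so neither was tested. Of the epithelial structure genes with an E-box in the promoter window, 6 were tested and none was called. Their log2 differences ranged from -1.69 ± 0.65 for CRB3 (SE, n = 3 per line, limma adjusted p = 0.292) to 0.95 ± 0.21 for the desmosomal gene DSP (limma adjusted p = 0.0587, 5.66e-04 with the slide in the fit and 0.00205 with the replicate number as a block), and that of CLDN7 was -0.06 ± 0.50. CRB3 and DSP were those of the 6 with an unadjusted limma p below 0.05. CRB3 read -3.25, -3.80 and -1.09 on the WT arrays, and WT array 3 stood apart: between arrays of the same number, K57N minus WT was -1.50, -0.33 and -3.24. With the slide in the fit and no limit on the fold, DSP passed as higher and SPINT1, a protease inhibitor of epithelia, as lower (a log2 difference of -0.57, limma adjusted p = 0.0131), 2 of 6 beside 19.4% of all genes tested.

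Of 22 mesenchymal structure genes, 14 were tested, and the 3 called in K57N cells were lower, beside 2.25% of all genes tested called in either direction. The log2 differences ranged from -1.53 to 1.16 and were above 0 for 5 of the 14. COL5A1 and COL5A2, chains of collagen V, fell by 1.53 and 1.25 on the log2 scale (limma adjusted p = 0.0158 and 0.00680). TAGLN, an actin-binding protein of smooth muscle and fibroblasts, fell by 1.50 (limma adjusted p = 0.00481). COL1A1 was lower by a log2 difference of -1.20 with a limma adjusted p of 0.0995. It passed with the slide in the fit (limma adjusted p = 0.00327) and with the replicate number as a block (limma adjusted p = 0.00841). The probe of COL3A1, a collagen of connective tissue, was not tested: it was well above background on 2 of 3 WT arrays, 2 of 3 F53S arrays and 0 of 3 K57N arrays. The highest difference, 1.16 ± 0.55, was that of MMP2, a matrix metalloproteinase (SE, n = 3 per line, limma adjusted p = 0.442, and 0.0971 with the slide in the fit). The median of the 14 was -0.36. Vimentin (VIM) differed by -0.03 ± 0.21, N-cadherin (CDH2) by 0.06 ± 0.20 and fibronectin (FN1) by -0.24 ± 0.20 (SE, n = 3 per line), and none of these passed the limma test.

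Among 12 tested of 13 other mesenchymal factors, the forkhead factor FOXQ1 was the 1 called, 2.33-fold higher in K57N cells (limma adjusted p = 0.0165), beside 2.25% of all genes tested. PRRX2, a homeobox factor, differed by 1.33 ± 0.39 (SE, n = 3 per line, limma adjusted p = 0.147, and 4.92e-04 with the slide in the fit). Among 8 tested of 13 other epithelial factors, the 2 called were also higher, beside the same 2.25%. FOXA2, a forkhead factor of endoderm epithelia, was 8.34-fold higher in K57N cells (limma adjusted p = 0.0109) and KLF4 was 2.17-fold higher (limma adjusted p = 0.0104). The medians of these lists were 0.18 and 0.33.

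In the TGF-beta pathway, which induces SNAI1 and the ZEB genes in many epithelia, 14 of 15 genes were tested. The ligand TGFB1 was the 1 called, beside 2.25% of all genes tested, rising 6.36-fold in K57N cells (limma adjusted p = 7.51e-04) and also higher than in F53S cells by a log2 difference of 2.14 (limma adjusted p = 0.00444). The median of the list was 0.04. Of 13 ESRP partners and targets of splicing, all tested, CD44, the hyaluronan receptor whose exons ESRP factors control, was the 1 called, 2.58-fold higher (limma adjusted p = 0.00520), beside the same 2.25%. FGFR2, the receptor whose epithelial form depends on ESRP factors, read 1.58, 1.49 and 1.41 on the WT arrays, 1.39, 1.32 and 1.26 on the F53S arrays and 0.56, 0.51 and 0.66 on the K57N arrays. All K57N arrays were below the others, and its level was 1.89-fold lower than in WT cells, short of the 2-fold limit (limma adjusted p = 0.0124). These values are of single probes and do not measure splice forms. Of 18 cofactors and enzymes that act with or degrade SNAI1 and ZEB1, all tested, none was called in limma, 0 had an unadjusted limma p below 0.05, and the log2 differences lay between -0.51 and 0.34 with a median of -0.01. With no limit on the fold and the slide in the fit, FBXL14, FBXW7 and BTRC, members of ubiquitin ligases, passed, each lower in K57N cells, 3 of 18 beside 19.4% of all genes tested. BTRC did not pass with the replicate number as a block (limma adjusted p = 0.0855). With the slide in the fit and no limit on the fold, where 19.4% of all genes tested passed between K57N and WT cells, the lists had these counts. Of other epithelial factors 4 were higher and 1 lower of 8, and of other mesenchymal factors 4 were higher and 1 lower of 12. Of epithelial structure genes 2 (DSP and KRT18) were higher and 4 (MARVELD3, PKP3, LLGL2 and SPINT1) lower of 17, and of mesenchymal structure genes 0 were higher and 5 lower of 14. In the TGF-beta pathway 2 were higher and 2 lower of 14, and among ESRP partners and targets 3 were higher and 2 lower of 13. No gene of any of these lists was called by limma between F53S and WT cells, and FOXA2 was the 1 with an unadjusted limma p below 0.05 and more than 2-fold, at a log2 difference of 1.04.

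**Figure D3:**
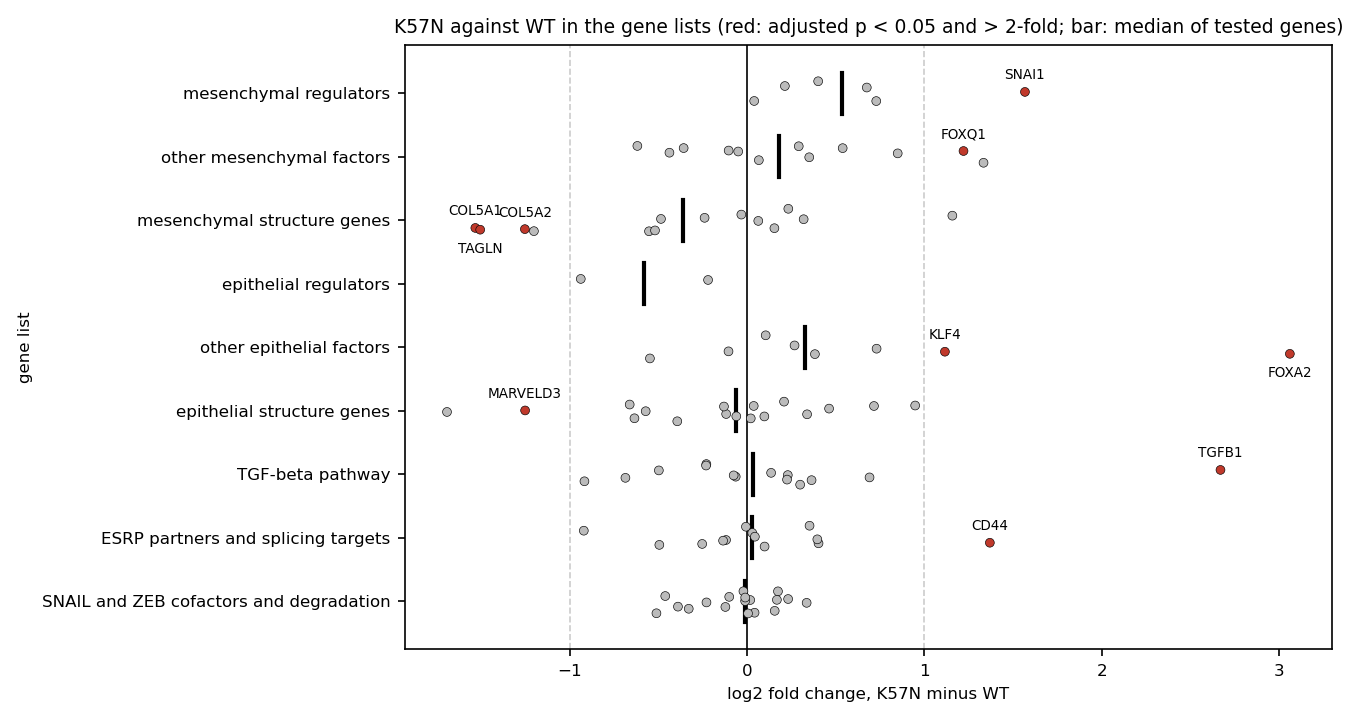
Log2 fold changes between K57N and WT cells (x axis) for the tested genes of 9 lists (y axis). Each point is a gene, red points passed the limma test and the 2-fold limit, and the black bar is the median of the list. The epithelial factor FOXA2 (3.06) and the ligand TGFB1 (2.67) lie farthest to the right. SNAI1, FOXQ1, KLF4 and CD44 also lie to the right, while the called mesenchymal structure genes lie at -1.53 to -1.25.

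The genes whose values over the 9 arrays were most like those of SNAI1 were found from the root mean square difference of log2 values after each gene's mean was removed. Among 17007 genes above background on all arrays the closest was TRIB1, a pseudokinase that scaffolds ubiquitin ligases, at 0.107. SOX8, a transcription factor of the neural crest, followed at 0.116, LAMA4, a laminin chain, at 0.123 and CD44 at 0.130. The fifth, at 0.140, was a probe with no gene name in the annotation. The median over all genes compared was 0.808. These are likenesses over 9 arrays of 3 lines that share slides, and they carry no test.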

How the data were processed

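Total RNA of 3 HEK293 lines was hybridized by the authors to 1-color (Cy3) Agilent SurePrint G3 Human arrays, 3 arrays per line. Per the file headers, the deposited intensity is Agilent's processed signal, already corrected for background and for spatial trends, made with Agilent Feature Extraction 10.10.1.1 according to the submitters' processing notes. The authors also deposited log2 values, which equal log2 of this signal minus a constant that differs between arrays, and how that constant was set is not given in the sources used here. Log2 signal was taken relative to each array's 75th percentile over noncontrol spots. Spots marked uneven or outlying (278 to 501 of 62975 per array) were left out, and repeated spots were averaged. Probes that the scanner software marked well above background throughout at least 1 line were tested with limma 3.58.1 in R 4.3.3 with the data.table package, version 1.17.8, with 1 mean per line and p adjusted by Benjamini-Hochberg over 25397 probes. The procedure was tested on simulated data, with planted changes larger than those of the regulators and noise set below the measured spread. That run does not show how changes of the regulators' size are called. Figures used Python 3.11.15, pandas 2.3.3 and matplotlib 3.10.9. Gene names follow the newer of the annotation versions in the files; 17465 of 50598 probe names differ between versions. Positions are hg19 as in the files, and coding or UTR parts were not looked up. The number of arrays limits the precision. Same-numbered arrays deviated together from their line means (r of 0.341 to 0.871 over probes), and the part of the slides in this was not tested. Named genes were the 10 regulators with all their probes; from each other list the genes called without or with the slide in the fit, up to 3 rises and 3 falls; CDH1, EPCAM, VIM, CDH2 and FN1 whatever their values; and the 5 profiles closest to the called regulator. Genes named for other reasons were chosen after their values were seen. The regulators and lists were chosen with earlier results of these data known. Alternatives were the slide and replicate blocks, each slide alone, normexp with an offset of 50, quantile normalization, other filters, probe averages, pairs of lines, the deposited table, the methods' t-test (Student's, named in the study's methods in general; the test used for its arrays is not given in the sources used here) and leaving out each array.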

Additional observations from a re-analysis of the deposited data

How the results depend on the processing

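The SNAI1 difference between K57N and WT cells kept its direction in every alternative, between 1.42 and 1.68 on the log2 scale. The number of regulators called between K57N and WT cells was 1 in the fit as described and stayed 1 with the replicate block. It became 2 (SNAI1 and OVOL2) on the arrays of slide 2 alone, where 726 of all genes tested were called. It was 0 with no filter on dim probes and 0 by the methods' t-test after Benjamini-Hochberg, although 1 at a p below 0.05 without adjustment. It was 4 with the slide in the fit and no limit on the fold, an alternative chosen after seeing the data. Leaving out each array gave 1 each time. Between K57N and F53S cells the number was 1, and 1 with the replicate block. It was 0 with no filter, with those lines alone or by the adjusted t-test, 2 with the slide and no fold limit, and between 0 and 1 when an array was left out. Between F53S and WT cells it was 0 in every alternative, the replicate block and an unadjusted limma p included.

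Over all genes tested, 432 were called between K57N and WT cells and 233 between K57N and F53S cells. These counts became 872 and 577 with the slide block, 843 and 552 with the replicate block, 189 and 77 with normexp, 164 and 68 with no filter, and 108 and 26 by the adjusted t-test. Leaving out 1 array moved the first from 207 (without K57N array 3) to 526 (without F53S array 1). It moved the second from 73 (without F53S array 3) to 241 (without WT array 1). As arrays were left out, the K57N minus WT difference ran from 0.29 to 0.95 for ZEB1 and from 0.44 to 0.82 for ZEB2 (each lowest without WT array 1), from 0.22 (without K57N array 1) to 0.53 for TWIST2, from 0.13 to 0.33 (without WT array 1) for TWIST1 and from -0.31 to -0.07 (without K57N array 1) for ESRP2, and passed in none of these fits. Genes near 0 changed sign. The K57N minus WT difference of SNAI2 was -0.175 on slide 2 and -0.044 with normexp, and ran from -0.087 to 0.19 as arrays were left out. The F53S minus WT difference became -0.13 for OVOL2 and 0.061 for ZEB2 on slide 2, 0.057 for ZEB2 on probes above background on all 9 arrays, and -0.18 for TWIST1 as a mean of its probes. As arrays were left out it ran from -0.36 to 0.48 for ZEB1, -0.12 to 0.068 for ESRP2, -0.070 to 0.23 for TWIST2, -0.0020 to 0.25 for TWIST1, -0.22 to 0.14 for OVOL2, -0.61 to 0.30 for ZEB2 and -0.32 to 0.75 for SNAI2. For K57N against F53S it ran from -0.0044 to 0.22 for TWIST1 and -0.71 to 0.36 for SNAI2. The causes were not tested. Array 1 of each line was dimmer, and ESRP1 was above background on no array and GRHL2 on at most 2 per probe, so neither was tested.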

Other observations

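The newer array annotation names 3 further probes TWIST1 (chr7:19039443-19039502, chr7:19039592-19039651 and chr7:19039842-19039901, hg19, minus strand). They carry the accession of a predicted transcript and were named as a long intergenic RNA in the older version. None was above background on any of the 9 arrays. A gene average over all probes named TWIST1 would therefore mix these with the 2 probes of the RefSeq transcript.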
